A study of Mus musculus with 6 samples.

Results

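The genes described here belong to 7 families of plasma membrane and lysosomal solute carriers known for moving amino acids. Some members carry other substrates, such as Slc43a3 and Slc6a8, and the Slc3 members are heavy chains of exchangers. They are all genes of the deposited expression table whose symbols belong to the families Slc1, Slc3, Slc6, Slc7, Slc36, Slc38 and Slc43 and end in a plain number, 60 of 34745 genes. Symbols with a further letter, such as Slc6a20a and Slc6a20b, fall outside this rule. The cells were CD4 T cells grown from naive CD4 T cells, which were taken from spleens of 6-week-old C57BL/6 females, with no genetic change named. The PM2.5 group received a suspension of airborne fine particles at 100 µg/ml, 6 h after the start of stimulation. The label of the PBS group reads PBS (untreated control), PBS being a buffered saline. Both groups were stimulated for 4 days on plates coated with antibodies to CD3 and CD28. The RPMI medium of both groups held 10% serum and 55 µM mercaptoethanol. It also held TGF-beta, IL-2, IL-23 and IL-6 and blocking antibodies to IFN-gamma and IL-4, which polarise cells towards the IL-17 producing Th17 type. Each group holds 3 RNA sequencing libraries, and nothing says whether they came from separate animals or cultures, so p-values measure the spread between these libraries, which may be technical.

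An activated T cell grows and divides within days and must import amino acids for protein synthesis, for the mTORC1 growth signal and for glutathione. System L exchangers such as Slc7a5 bring in leucine and other large neutral amino acids and need the heavy chain Slc3a2 (CD98) to reach the surface. Carriers of systems A and ASC, Slc38a1, Slc38a2, Slc1a4 and Slc1a5, supply glutamine, alanine and serine, Slc7a1 supplies arginine and lysine, and Slc7a11 imports cystine in exchange for glutamate. A shortage of amino acids activates the kinase GCN2 and the transcription factor ATF4, and several of these transporter genes are known targets of ATF4.

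Library totals were 25397965 to 27215853 counts in the PM2.5 group and 19511561 to 22353131 counts in the PBS group, so each PM2.5 library was deeper than each PBS library. Where a library has 0 counts of a gene, 3 counts, or 0.110 to 0.154 CPM (counts relative to the library's own total), is the upper limit, for counting error only. The 60 members together took 0.515 to 0.551% of the counts of a PM2.5 library and 0.242 to 0.250% of those of a PBS library. Mitochondrial genes took 4.18 to 4.30% of the counts of a PM2.5 library and 4.76 to 5.14% of those of a PBS library, also without overlap, and their part in the results was not tested. All 8 genes of the T cell and Th17 list were detected, with a summed level of 3407 to 3880 CPM in PM2.5 libraries and 4446 to 4519 CPM in PBS libraries. Of these 8, 1 was higher and 6 were lower with PM2.5, where 35.2% of all genes tested were higher and 35.3% lower. Il17f alone had 1608 to 2059 CPM in PM2.5 libraries and 2324 to 2419 CPM in PBS libraries. Natural killer (NK) cell markers summed to 12.2 to 13.2 CPM in PM2.5 libraries against 41.8 to 53.0 CPM in PBS libraries, with the defining marker Ncr1 at 0, and 1 of the 3 tested of 5 was higher and 2 were lower in the PM2.5 group. Markers of CD8 and gamma-delta T cells summed to 25.5 to 29.2 CPM in PM2.5 libraries and 57.5 to 59.7 CPM in PBS libraries, with 1 of 4 higher and 3 lower. The 5 B cell markers (Ms4a1 at 0) summed to at most 0.441 CPM in PM2.5 libraries and 1.70 CPM in PBS libraries, and the 6 macrophage markers (Lyz2 at 0) to at most 3.52 CPM in PM2.5 libraries and 6.27 CPM in PBS libraries. The 6 dendritic cell markers (Clec9a and Siglech at 0) summed to 2.56 to 3.50 CPM in PM2.5 libraries and 0.948 to 1.30 CPM in PBS libraries, of which Zbtb46 made up 2.37 to 3.11 CPM in PM2.5 libraries and 0.361 to 0.626 CPM in PBS libraries. Of the 2 tested, 1 passed upward and 1 downward with PM2.5. Neutrophil markers (S100a8, S100a9 and Elane at 0) summed to at most 0.134 CPM and erythroid markers (Hba-a1 and Hbb-bs at 0) at most 1.21 CPM in any library, and stromal and endothelial markers, mostly Pecam1, summed to 47.3 to 50.7 CPM in PM2.5 libraries and 82.8 to 88.1 CPM in PBS libraries. The part of these other cells in the results was not tested, and in bulk RNA fewer cells of a type and less RNA per cell cannot be told apart.

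Of the 60 members, 47 had at least 1 count and 28 passed edgeR's filter on low counts and were tested. A mean of at least 1 FPKM (the authors' counts relative to gene length and library total) in at least 1 group was reached by 19 members, in the PM2.5 group by 19 and in the PBS group by 17. The difference is Slc6a9 and Slc7a3, which passed 1 FPKM in the PM2.5 group alone. These counts rest on the authors' gene lengths, as do all orders, shares and ratios between genes below. The length of 9773 bases for Slc6a9 exceeds that of its exons in the GENCODE M21 annotation. With a shorter length its PBS mean of 0.901 FPKM could pass 1. Expression was uneven across families. All 3 Slc43 genes, 6 of 11 Slc38 genes, 8 of 15 Slc7 genes, 4 of 7 Slc1 genes, both Slc3 genes and 2 of 4 Slc36 genes were tested, but only 3 of the 18 Slc6 genes, the family of neurotransmitter carriers.

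The 13 members without a count in any library were Slc1a6, Slc1a7, Slc6a2, Slc6a7, Slc6a14, Slc6a15, Slc6a18, Slc7a9, Slc7a10, Slc7a12, Slc7a15, Slc36a2 and Slc38a11. A further 19 members had 1 to 56 counts over the 6 libraries and were not tested. In the Slc6 family these included Slc6a17, with 28 counts over the PM2.5 group and 20 over the PBS group, and the GABA carrier Slc6a13, with 1 count over the PM2.5 group and 12 over the PBS group. In the Slc1 family the glutamate carrier Slc1a2 had 25 counts over the PM2.5 group and 2 over the PBS group. The cationic carrier Slc7a2 had 25 counts over the PM2.5 group and 21 over the PBS group, and Slc36a3 had 22 counts over the PM2.5 group and 34 over the PBS group. The remaining members of these 19 had at most 6 counts in all.

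**Figure D1:**
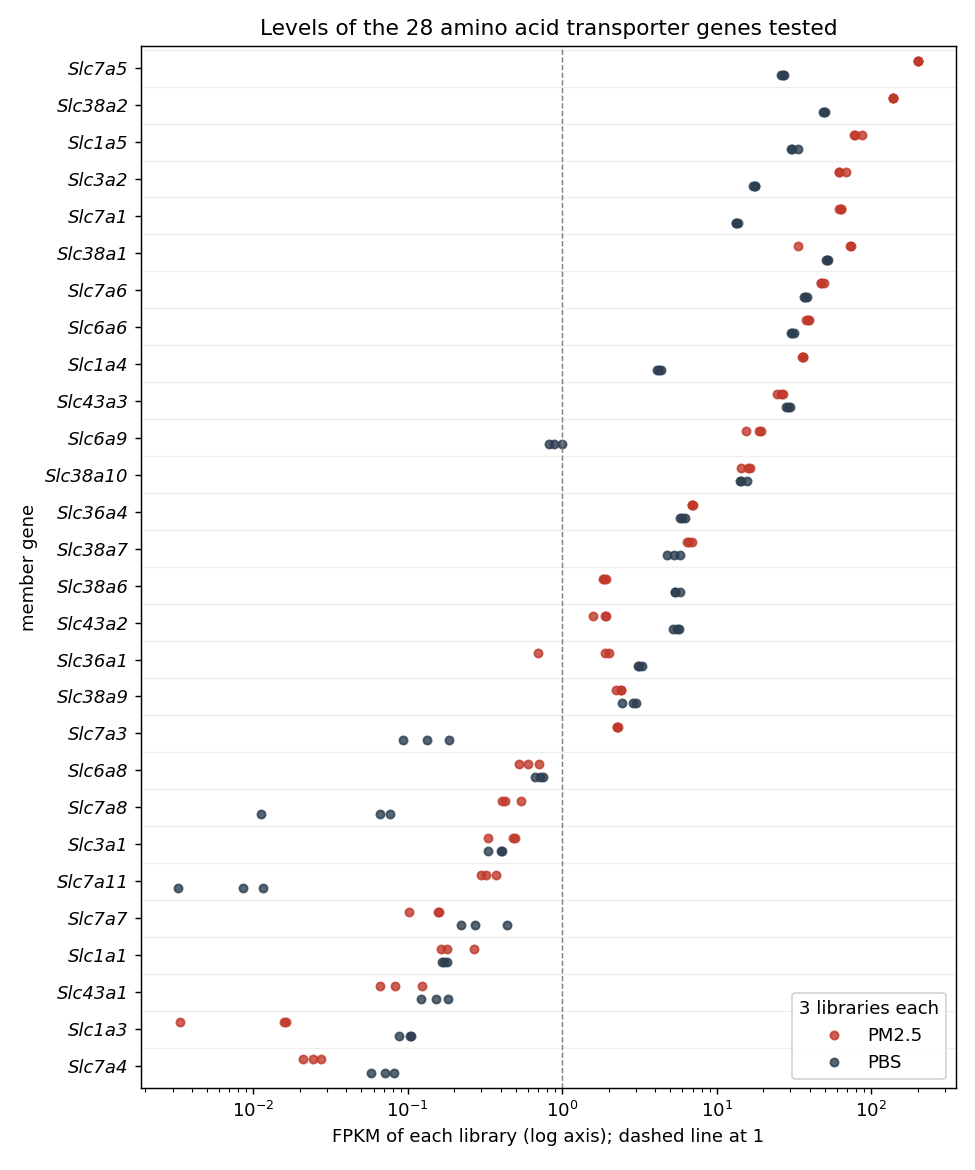
FPKM of each library for the 28 members tested, on a log axis, with the PM2.5 libraries drawn above the PBS libraries in each row; the dashed line marks 1 FPKM. The levels span from under 0.01 FPKM to 203 FPKM, and the rows of Slc7a5, Slc1a4, Slc7a1 and Slc6a9 show 3 PM2.5 points far to the right of the PBS points.

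More members passed the test upward than downward with PM2.5, and those that rose at least 4-fold were Slc7a11, Slc6a9, Slc7a3, Slc7a8, Slc1a4, Slc7a5 and Slc7a1. Of the 28 members tested, 15 passed edgeR's quasi-likelihood test upward and 7 downward with PM2.5 (adjusted p under 0.05), and 6 did not pass. Over all 12967 genes tested, 35.2% were higher and 35.3% lower, so 70.6% passed in either direction. A rise of at least 2-fold was called for 10 of the 28, against 6.51% of all genes, and of at least 4-fold for 7, against 1.70%. A fall of at least 2-fold was called for 5, against 12.4%. The median log2 fold change was 0.29 over the members tested and -0.01 over all genes tested, and the median size of change was 1.26 and 0.43. The groups did not overlap in CPM for 20 of the 28 members, against 74.9% of all genes. These counts describe only the members that passed the filter: Slc7a11 and Slc7a8 reached its level in all libraries of the PM2.5 group only, and Slc7a4 and Slc1a3 in those of the PBS group only, so these 4 had to differ. The count of 7 lower was 4 with DESeq2 (with 16 higher), 4 with a filter at a mean of 5 CPM and 4 without PBS replicate 3.

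**Figure D2:**
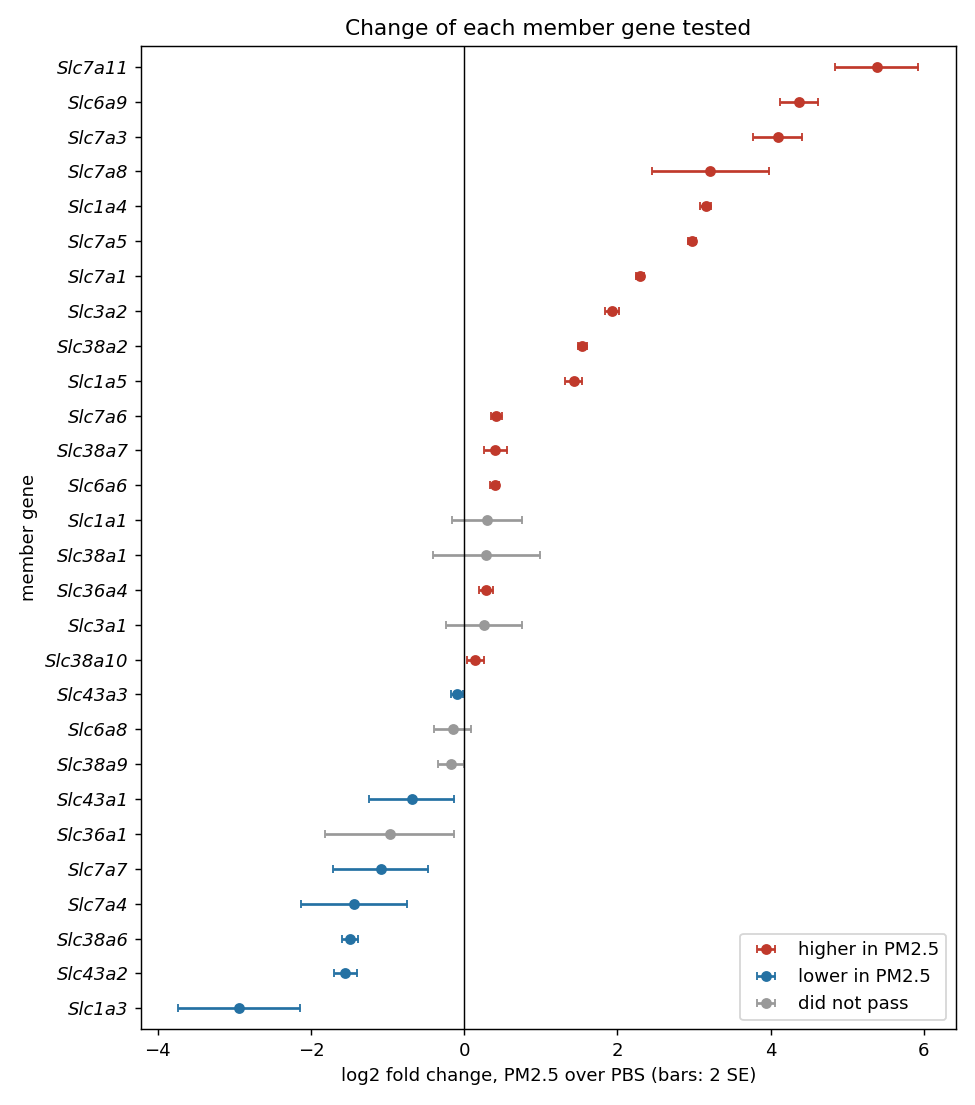
The log2 fold change of PM2.5 over PBS of each member tested, with bars of 2 SE on each side that are not the test itself; colours give the call at an adjusted p of 0.05 in edgeR. Changes run from 5.38 for Slc7a11 to -2.94 for Slc1a3, and 10 of the 15 members called higher lie above 1.

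Among the exchangers built of a heavy and a light chain, Slc3a2, Slc7a5, Slc7a6, Slc7a8 and Slc7a11 rose, Slc7a7 fell and Slc3a1 did not pass. Over all genes tested, 35.2% were higher and 35.3% lower. Slc7a11 and Slc7a8 reached the filter's level in all libraries of the PM2.5 group only. Slc3a2, the heavy chain CD98 that carries 6 of the members to the cell surface, had 61.9, 68.5 and 61.9 FPKM in the PM2.5 libraries, against 17.8, 17.3 and 17.7 FPKM in the PBS libraries. It lies in mm10 on chromosome 19, 8706882 to 8723369 (ENSMUSG00000010095). Each PM2.5 library stood far above each PBS library, and the log2 fold change was 1.93 (SE 0.04, edgeR adjusted p = 1.00e-10). The other heavy chain, Slc3a1, which serves kidney and gut epithelia, had 20 to 30 counts in PM2.5 libraries and 17 to 21 counts in PBS libraries and did not pass (0.26, SE 0.25, edgeR adjusted p = 0.369). Its exons share 601 bases with the oppositely oriented Prepl, so its own counts are uncertain.

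Slc7a5, the light chain LAT1 (ENSMUSG00000040010, chromosome 8, 121881150 to 121907694), had 201, 203 and 200.0 FPKM in the PM2.5 libraries, against 27.3, 26.3 and 26.9 FPKM in the PBS libraries. The libraries of each group lay close together and the groups were far apart, at 7.84-fold (log2 fold change 2.97, SE 0.03, edgeR adjusted p = 2.65e-12). Slc7a6, the y+L light chain that exchanges cationic for neutral amino acids, had 47.5, 47.1 and 49.6 FPKM in PM2.5 libraries and 37.1, 38.6 and 37.0 FPKM in PBS libraries. It rose by much less, 1.34-fold (0.42, SE 0.04, edgeR adjusted p = 2.03e-06), without overlap of the groups. By mean FPKM, Slc7a6 was the most abundant light chain in the PBS group and Slc7a5 in the PM2.5 group. Slc7a5 made up 80.4 ± 0.566% of the summed light chain FPKM in the PM2.5 group and 41.5 ± 0.977% in the PBS group (SD, n = 3 each), and the ratio of Slc7a5 to Slc7a6 was 4.19 ± 0.145 in the PM2.5 group and 0.715 ± 0.0294 in the PBS group.

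Slc7a5 also rose more than its heavy chain, with a ratio of Slc7a5 to Slc3a2 FPKM of 2.96 to 3.25 in PM2.5 libraries and 1.52 to 1.54 in PBS libraries. The sum of the 6 light chains, by contrast, was 3.66 to 4.05 times the Slc3a2 level in PM2.5 libraries and 3.64 to 3.76 times in PBS libraries, and these ranges overlapped (exact permutation p = 0.2). The smallest p that 3 libraries against 3 allow is 0.1 before any adjustment, so no sum, share or ratio can pass 0.05. Of 45 such quantities computed, 41 reached that smallest p.

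The cystine carrier Slc7a11 (ENSMUSG00000027737, chromosome 3, 49892526 to 50443614) had 128, 131 and 149 counts in the PM2.5 libraries, against 4, 1 and 3 counts in the PBS libraries. Its log2 fold change of 5.38 (SE 0.27, edgeR adjusted p = 3.64e-08) was the highest of the members, but its level stayed low at 0.331 ± 0.0384 FPKM in the PM2.5 group. The authors' FPKM divide by a gene length of 15696 bases for Slc7a11, against 4309 bases for Slc7a5, and FPKM falls with that length. Slc7a8, the system L light chain LAT2, had 47, 43 and 55 counts in PM2.5 libraries and 1, 6 and 6 counts in PBS libraries (3.21, SE 0.38, edgeR adjusted p = 2.82e-05). Both genes were near the limit of detection in the PBS group and clearly present in each PM2.5 library. Slc7a7, a y+L light chain of epithelia and macrophages, had 20, 19 and 12 counts in PM2.5 libraries and 28, 20 and 45 counts in PBS libraries and fell by 1.09 on the log2 scale (SE 0.31, edgeR adjusted p = 0.00955). The call of Slc7a7 was lost without PBS replicate 3 (edgeR adjusted p = 0.0514), and its exons share 232 bases with Oxa1l on the opposite strand, which held 1701 to 2337 counts per library. The sixth light chain, Slc7a10, had no count.

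The promoter windows of Slc7a11 and of Slc1a4, a neutral amino acid carrier described further on, are shown because both rose and both hold the letters TGATGCAA, the core of the element through which C/EBP and ATF factors act on amino acid response genes. They were thus picked by their change, and Slc7a7, which fell, holds the same letters and is not shown. The windows run from 250 bases before to 50 bases after the RefSeq start (GRCm38.p6, the assembly of mm10), 5′ to 3′ on the strand of the gene, and capitals mark matches to TGATGNAA on either strand.
Slc7a11, chr3:50443564-50443863, minus strand: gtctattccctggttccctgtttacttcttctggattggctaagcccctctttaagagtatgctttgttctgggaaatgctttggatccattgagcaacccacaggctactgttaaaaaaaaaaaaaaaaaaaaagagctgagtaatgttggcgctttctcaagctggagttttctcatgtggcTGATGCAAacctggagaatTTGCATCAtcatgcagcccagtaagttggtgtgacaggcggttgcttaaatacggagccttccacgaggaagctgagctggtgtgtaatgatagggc
Slc1a4, chr11:20332664-20332963, minus strand: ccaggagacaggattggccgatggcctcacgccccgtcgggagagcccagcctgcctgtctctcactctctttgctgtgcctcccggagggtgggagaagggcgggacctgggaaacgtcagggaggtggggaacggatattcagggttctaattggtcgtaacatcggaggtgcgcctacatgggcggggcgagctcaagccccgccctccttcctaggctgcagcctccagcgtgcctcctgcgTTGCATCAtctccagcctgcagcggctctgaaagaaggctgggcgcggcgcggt

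Slc7a11 held a match at -66 to -59 on its own strand and another at -47 to -40 on the opposite strand, counted from the start. In Slc1a4 the match spanned the start itself, from -4 to 4. A window was at hand for 42 of the 60 members and 20 of the 28 tested. Among the 20, 3 held TGATGNAA on either strand: 2 of 11 that were higher, Slc7a11 and Slc1a4, and 1 of 5 that were lower, Slc7a7. Of all 27025 genes with a window 4.51% held it, and 1.03% held the form TGATGCAA, which all 3 of these members held. Slc7a5, Slc1a5, Slc38a1, Slc7a3, Slc6a6, Slc6a8, Slc43a3 and Slc7a4 had no window here, and a match is a string of letters, not a bound site.

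Among the carriers of cationic amino acids, Slc7a1 rose and so did Slc7a3, which had few counts in the PBS group, while the scarce related gene Slc7a4 fell. Slc7a1, the main arginine and lysine carrier CAT1 (ENSMUSG00000041313, chromosome 5, 148327410 to 148399904), had 63.8, 63.8 and 62.3 FPKM in the PM2.5 libraries, against 13.7, 13.3 and 13.4 FPKM in the PBS libraries. This rise of 4.91-fold was among the most even of the set (log2 fold change 2.30, SE 0.03, edgeR adjusted p = 3.16e-12). Slc7a3, the related carrier CAT3 that is best known from the nervous system (ENSMUSG00000031297, chromosome X, 101079210 to 101086020), had 373, 362 and 350 counts in PM2.5 libraries and 18, 11 and 25 counts in PBS libraries. Slc7a3 rose 17.0-fold (4.09, SE 0.16, edgeR adjusted p = 4.39e-09), yet at 2.27 ± 0.0126 FPKM in the PM2.5 group it stayed far below Slc7a1, which had 27.4 to 28.2 times its FPKM in PM2.5 libraries and 72.8 to 144 times in PBS libraries. Slc7a4, a related gene, had 7, 6 and 5 counts in PM2.5 libraries and 12, 13 and 17 counts in PBS libraries and fell by 1.44 (SE 0.35, edgeR adjusted p = 0.00372). That call was lost with DESeq2 (adjusted p = 0.0522), and its exons share 554 bases with P2rx6 on the opposite strand, which had 1 to 3 counts in PM2.5 libraries and 5 to 11 counts in PBS libraries. Slc7a4 also reached the filter's level in all libraries of the PBS group only, so it had to differ.

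Both carriers of system ASC rose, the rarer one by more. Slc1a4, the ASCT1 carrier of serine, alanine and cysteine (ENSMUSG00000020142, chromosome 11, 20302180 to 20332713), had 35.8, 36.1 and 36.3 FPKM in the PM2.5 libraries, against 4.26, 4.09 and 4.37 FPKM in the PBS libraries. Its close relative Slc1a5, the glutamine carrier ASCT2 (ENSMUSG00000001918, chromosome 7, 16781340 to 16798274), had 77.9, 78.8 and 87.2 FPKM in PM2.5 libraries and 30.7, 30.2 and 33.7 FPKM in PBS libraries. Both rose without overlap, Slc1a4 by 8.90-fold (log2 fold change 3.15, SE 0.04, edgeR adjusted p = 3.15e-12) and Slc1a5 by 2.69-fold (1.43, SE 0.06, edgeR adjusted p = 6.20e-08). Slc1a5 thus exceeded Slc1a4 in FPKM by 2.18 to 2.40 times in PM2.5 libraries and by 7.22 to 7.71 times in PBS libraries.

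Slc38a2, the system A carrier SNAT2 (ENSMUSG00000022462, chromosome 15, 96687394 to 96699698), had 138, 138 and 139 FPKM in the PM2.5 libraries, against 50.4, 49.4 and 49.1 FPKM in the PBS libraries. The libraries of a group were nearly equal, and the rise was 2.91-fold (1.54, SE 0.03, edgeR adjusted p = 1.79e-11). Its neighbour Slc38a1, the glutamine carrier SNAT1, lies 44480 bases away on the same chromosome (ENSMUSG00000023169, 96571418 to 96642913). Slc38a1 had 33.8, 73.7 and 73.4 FPKM in the PM2.5 libraries, against 51.7, 52.4 and 51.0 FPKM in the PBS libraries. PM2.5 replicate 1 lay below and the other PM2.5 libraries above all PBS libraries, and the gene did not pass (0.29, SE 0.35, edgeR adjusted p = 0.504). Without PM2.5 replicate 1 it stood at 0.58 (edgeR adjusted p = 2.98e-07). In that library Slc38a1 was at 46.0% of the mean of the other PM2.5 libraries.

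The same pattern appeared once more among the members, in the lysosomal carrier Slc36a1. Among 9920 genes whose mean CPM reached 5, 44 to 57 per library stood over 1.5-fold apart from both other libraries of the group while these lay within 1.1-fold of each other. Slc38a1 was 1 of 45 such genes in PM2.5 replicate 1 and Slc36a1 was 1 of 51 in PM2.5 replicate 2. Neither gene shares exon bases with another gene in GENCODE M21, and the source of the jumps was not tested. The values with and without these libraries are given for both genes.

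**Figure D3:**
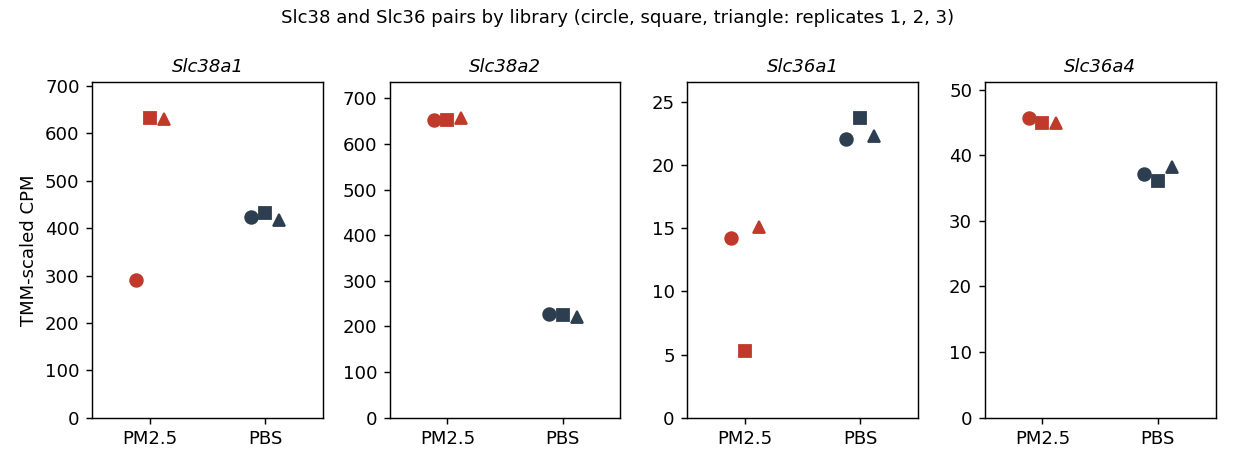
TMM-scaled CPM of Slc38a1, Slc38a2, Slc36a1 and Slc36a4 in each library; circles, squares and triangles are replicates 1, 2 and 3, and each axis starts at 0. PM2.5 replicate 1 stands at 290.1 CPM for Slc38a1, against 632 and 630.0 CPM in the other PM2.5 libraries, and PM2.5 replicate 2 at 5.25 CPM for Slc36a1, while Slc38a2 and Slc36a4 show no such library.

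The carriers of the lysosome showed small or uneven changes. Slc36a1, the proton-coupled carrier PAT1 (ENSMUSG00000020261, chromosome 11, 55204350 to 55236330), had 1.90, 0.699 and 2.02 FPKM in the PM2.5 libraries, against 3.07, 3.29 and 3.13 FPKM in the PBS libraries. Each PM2.5 library was below each PBS library, but the gene did not pass in edgeR (log2 fold change -0.98, SE 0.42, adjusted p = 0.101). It did pass with all 6 libraries in limma, on log2(FPKM + 1) (adjusted p = 0.0177) and on log2(FPKM + 0.1) (adjusted p = 0.0359). Without PM2.5 replicate 2 it fell by 0.62 (edgeR adjusted p = 5.12e-05). Slc36a4, the related PAT4, rose by 1.22-fold (0.28, SE 0.05, edgeR adjusted p = 0.000311), and Slc38a7, a glutamine exporter of lysosomes, by 1.32-fold (0.40, SE 0.07, edgeR adjusted p = 0.000735). Slc38a9, the arginine sensor of mTORC1 on the lysosome, had 2.40, 2.24 and 2.39 FPKM in PM2.5 libraries and 2.42, 2.87 and 3.01 FPKM in PBS libraries. These groups overlapped slightly in CPM and the gene did not pass (-0.17, SE 0.08, edgeR adjusted p = 0.0863); it did pass with library totals in place of TMM (-0.24, adjusted p = 0.0275) and without PBS replicate 1 (-0.26, adjusted p = 0.00826). Summed over the 4 genes, the level was 17.5 ± 0.899 FPKM in the PM2.5 group and 17.2 ± 0.463 FPKM in the PBS group (SD, n = 3 each, exact permutation p = 0.7).

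The 3 Slc43 genes and Slc38a6 passed the test downward, Slc43a1 and Slc43a3 only narrowly. Slc43a2, the facilitative system L carrier LAT4 (ENSMUSG00000038178, chromosome 11, 75531694 to 75577575), had 1.58, 1.91 and 1.89 FPKM in the PM2.5 libraries, against 5.57, 5.18 and 5.71 FPKM in the PBS libraries. It fell without overlap (-1.55, SE 0.07, edgeR adjusted p = 7.26e-08), opposite in direction to the system L exchangers Slc7a5 and Slc7a8. Slc43a1, the other facilitative system L carrier (LAT3), had 16, 19 and 28 counts in PM2.5 libraries and 30, 21 and 36 counts in PBS libraries and passed only narrowly (-0.69, SE 0.28, edgeR adjusted p = 0.0483). Slc43a3, which carries purine bases rather than amino acids, had 27.0, 24.7 and 26.0 FPKM in PM2.5 libraries and 28.1, 29.1 and 29.8 FPKM in PBS libraries (-0.10, SE 0.04, edgeR adjusted p = 0.0485). The groups overlapped in CPM for both genes, and each lost its call under 7 alternatives, Slc43a1 of 12 and Slc43a3 of 13, among them leaving out PBS replicate 1 or 3 or PM2.5 replicate 1 or 2 for Slc43a1 (adjusted p = 0.0964 to 0.165) and PBS replicate 2 or 3 or PM2.5 replicate 2 or 3 for Slc43a3 (adjusted p = 0.0909 to 0.224). Slc38a6 (ENSMUSG00000044712, chromosome 12, 73286779 to 73354049) had 1.85, 1.87 and 1.91 FPKM in the PM2.5 libraries, against 5.36, 5.39 and 5.83 FPKM in the PBS libraries. This fall was even across libraries (-1.50, SE 0.05, edgeR adjusted p = 1.85e-09). Slc38a10 had 16.5, 15.9 and 14.5 FPKM in PM2.5 libraries and 14.5, 14.1 and 15.8 FPKM in PBS libraries. Its groups overlapped, and its small rise (0.15, SE 0.06, edgeR adjusted p = 0.0445) was lost in 10 of 13 alternatives, among them library totals (adjusted p = 0.242) and leaving out PBS replicate 1 or 2 or PM2.5 replicate 1 or 2 (adjusted p = 0.125 to 0.167).

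In the Slc6 family the glycine and taurine carriers rose and the creatine carrier did not pass. Slc6a9, the glycine carrier GlyT1 (ENSMUSG00000028542, chromosome 4, 117834506 to 117875198), had 18.7, 15.4 and 19.3 FPKM in the PM2.5 libraries, against 0.817, 0.886 and 0.998 FPKM in the PBS libraries. All PM2.5 libraries stood far above all PBS libraries, a rise of 20.7-fold (4.37, SE 0.12, edgeR adjusted p = 3.60e-07). Its exons overlap those of Ccdc24, Gm17114 and B4galt2 on the opposite strand, which held at most 85 counts in any library, against 3939 to 4977 counts for Slc6a9 in PM2.5 libraries. The taurine carrier Slc6a6 had 39.4, 38.1 and 39.3 FPKM in PM2.5 libraries and 30.6, 30.3 and 31.8 FPKM in PBS libraries, a smaller rise of 1.32-fold (0.40, SE 0.03, edgeR adjusted p = 6.92e-07). The creatine carrier Slc6a8 had 5.33 to 7.10 CPM in PM2.5 libraries and 6.35 to 7.29 CPM in PBS libraries, groups that overlapped, and did not pass (-0.15, SE 0.12, edgeR adjusted p = 0.287).

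Carriers of acidic amino acids were scarce in both groups. Slc1a3, the glial glutamate carrier GLAST, had 5, 5 and 1 counts in the PM2.5 libraries, against 27, 24 and 23 counts in the PBS libraries, and fell (-2.94, SE 0.40, edgeR adjusted p = 7.07e-05). Slc1a3 reached the filter's level in all libraries of the PBS group only, so it had to differ. Slc1a1, the neuronal and epithelial glutamate carrier, had 37, 39 and 57 counts in PM2.5 libraries and 33, 28 and 31 counts in PBS libraries; the groups overlapped in CPM and it did not pass (0.30, SE 0.23, edgeR adjusted p = 0.260). Its exons share 2631 bases with 4430402I18Rik on the opposite strand, which had 4 to 6 counts in PM2.5 libraries and 0 to 1 in PBS libraries. Summed over the 5 glutamate and aspartate carriers, the level was 0.237 ± 0.0502 FPKM in the PM2.5 group and 0.273 ± 0.0118 FPKM in the PBS group (SD, n = 3 each).

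The make-up of the whole set shifted. The members' FPKM summed to 817 ± 25.1 in the PM2.5 group and 339 ± 4.17 in the PBS group (SD, n = 3 each), 2.41 times as much. By family, the Slc7 genes summed to 316 ± 0.779 FPKM in the PM2.5 group and 78.5 ± 0.314 FPKM in the PBS group, and the Slc38 genes to 225 ± 22.1 FPKM in the PM2.5 group and 129.7 ± 0.737 FPKM in the PBS group. In the PM2.5 group the order by mean FPKM was Slc7a5, Slc38a2, Slc1a5, Slc3a2, Slc7a1 and Slc38a1; Slc3a2 at 64.1 ± 3.84, Slc7a1 at 63.3 ± 0.874 and Slc38a1 at 60.3 ± 22.9 FPKM did not differ beyond their spread. In the PBS group the order was Slc38a1, Slc38a2, Slc7a6, Slc1a5, Slc6a6, Slc43a3 and Slc7a5. There Slc1a5 at 31.6 ± 1.88 and Slc6a6 at 30.9 ± 0.811 FPKM did not differ beyond their spread. Slc7a5 held 24.7 ± 0.811% of the summed FPKM in the PM2.5 group and 7.92 ± 0.153% in the PBS group, and among all genes it ranked 137 by mean FPKM in the PM2.5 group and 1828 in the PBS group. Slc7a6 and Slc6a6 rose but made up smaller shares of the sum, Slc7a6 5.88 ± 0.175% in the PM2.5 group and 11.1 ± 0.373% in the PBS group, Slc6a6 4.77 ± 0.203% in the PM2.5 group and 9.12 ± 0.126% in the PBS group.

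**Figure D4:**
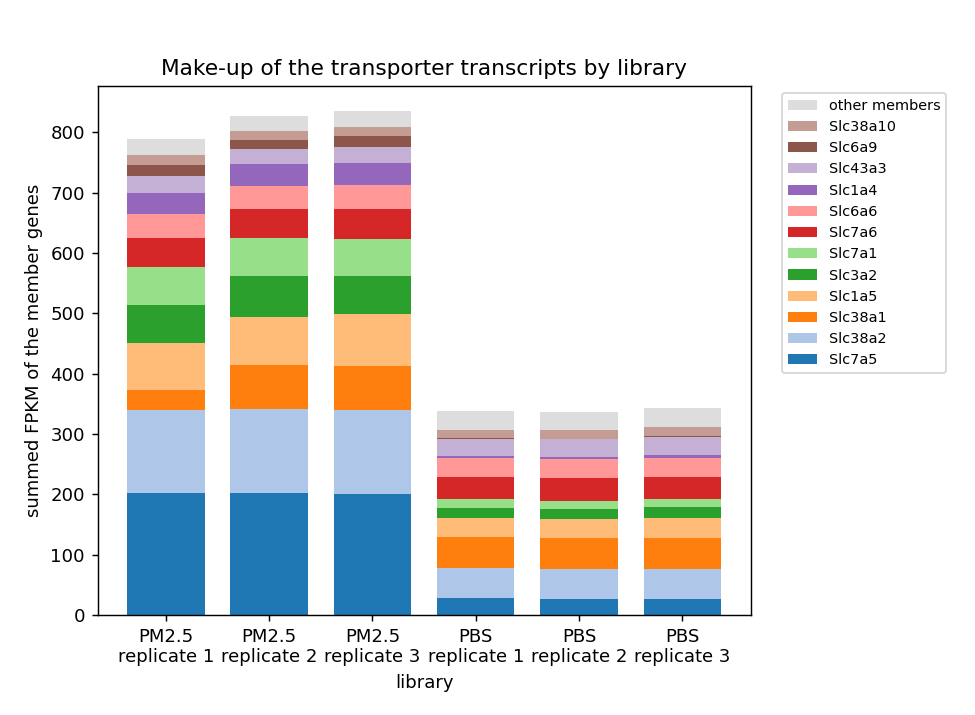
Summed FPKM of the members in each library, stacked by gene for 12 members and with the rest in grey. The PM2.5 libraries reach 788 to 835 FPKM and the PBS libraries 335 to 343 FPKM, and Slc7a5 has the largest share in PM2.5 libraries and a minor share in PBS libraries.

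Some members are neighbours on a chromosome. Within 100 kb of each other lay 8 pairs with 14 members. Slc38a1 and Slc38a2 on chromosome 15 are described above. On chromosome 11, Slc36a1 had a neighbour, Slc36a2, without a count, and Slc36a3 beyond it had few. Slc43a1 and Slc43a3 on chromosome 2 lie 72984 bases apart and differed widely in level, with 0.0910 and 25.9 FPKM in the PM2.5 group and 0.152 and 29.0 FPKM in the PBS group.

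Other amino acid transporter genes, outside the symbol rule, were listed for comparison. Of 28 such genes in the table, Slc6a20a and Slc6a20b of the Slc6 family and carriers of peptides, of lysosomal amino acids and of the mitochondrial membrane among them, 21 were tested. With PM2.5, 6 were higher and 9 lower (median log2 fold change -0.18), where 35.2% of all genes tested were higher and 35.3% lower. None rose 2-fold, against 6.51% of all genes tested, and 2 fell at least 2-fold, against 12.4%. With 21 genes, none is near that share. Slc16a10, the facilitative carrier of aromatic amino acids TAT1, had 34.5 ± 0.746 CPM in the PM2.5 group and 119.6 ± 4.32 CPM in the PBS group (SD, n = 3 each; log2 fold change -1.80, SE 0.04, edgeR adjusted p = 1.44e-10). The peptide carrier Slc15a1 (-2.66), the mitochondrial ornithine carrier Slc25a15 (-0.75) and the mitochondrial carrier Sfxn3 (-0.59) also fell.

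The genes of the amino acid response rose together in the same libraries. All 24 listed genes that are not members rose, 23 of them at least 2-fold, against 6.51% of all genes tested, with a median log2 fold change of 2.85. The list was chosen with earlier results of these data known, so this count is a description only. Atf4 had 1022 ± 3.23 CPM in the PM2.5 group and 184 ± 3.93 CPM in the PBS group (SD, n = 3 each; log2 fold change 2.47), and the tRNA synthetase genes Nars (2.29) and Cars (2.79) and the mitochondrial phosphoenolpyruvate carboxykinase Pck2 (4.58) rose with it. Among other transcription factor genes known to act on these carriers, Myc rose by 0.62, Hif1a by 0.45 and the oxidant-responsive Nfe2l2 by 0.35, all in edgeR's test. Of 27 genes of amino acid sensing by mTORC1, 11 were higher and 12 lower (median 0.05), where 35.2% of all genes tested were higher and 35.3% lower. Those with the smallest adjusted p were falls of the sestrin gene Sesn3 (-0.70), the GATOR1 subunit gene Depdc5 (-0.69), Gatsl2 (-0.69) and Gatsl3 (-1.82), the last an older symbol of the arginine sensor Castor1. The sestrin gene Sesn2 was counted among the genes of the amino acid response and not among these 27, and it rose (2.26).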

How the data were processed

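RNA sequencing libraries of 3 PM2.5 and 3 PBS samples were used. The authors deposited raw counts per gene and FPKM values in 1 table, per the file headers. TopHat2 2.0.6 and the build mm10 are named, per the submitters' processing notes; for the counting program, the annotation and the use of strand, the sources used here give nothing. The deposited FPKM equal counts divided by the library total and a fixed gene length, within 0.000856% for 9540 genes with over 100 counts. Groups came from the sample labels. The members and gene lists were chosen with earlier results of these data known.

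The counts were tested in edgeR 4.0.16 (R 4.3.3) with TMM scaling, filterByExpr (minimum count 10, minimum total 15) and the robust quasi-likelihood F test, with Benjamini-Hochberg adjustment over all 12967 genes that passed; 21778 were left out and 99.9% of counts were kept. Library totals were 19511561 to 27215853 counts. Sums, shares and ratios of FPKM were compared by two-sided exact permutation tests. Alternatives were library totals, no filter, a filter at a mean of 5 CPM, DESeq2 1.42.0, limma 3.58.1 on log2(FPKM + 1) and log2(FPKM + 0.1), a replicate block, TPM in place of FPKM and leaving out each library. The edgeR step was tested on simulated data with known changes. All tested members were eligible to be named. Of each other list at most 4 genes were named, those with the smallest adjusted p, plus Atf4, Myc, Nfe2l2 and Hif1a. Sesn2 was named in addition. Promoter windows are from RefSeq (GRCm38.p6) and exon overlaps from GENCODE M21.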

Additional observations from a re-analysis of the deposited data

How the results depend on the processing

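No member changed direction under any alternative run, and 20 of the 28 members tested had the same call under every one run for them. Of the 22 members called higher or lower, 17 kept their call throughout. Members below the 5 CPM filter had 12 alternatives and the others 13. The count of members lower in the PM2.5 group, 7, was 4 with the 5 CPM filter (21 members tested) and 4 with DESeq2 (34 tested), and 4 to 7 when a library was left out; it was 4 without PBS replicate 3. The count of members higher, 15, was 14 to 15 when a library was left out and 13 to 16 over all alternatives. Of the calls, 80.0% were higher with DESeq2 and 68.2% in edgeR. Library totals in place of TMM moved the median of all genes by -0.06. The same-numbered libraries did not deviate together (correlations of -0.01 to 0.05), but this cannot settle whether the numbers pair them, since paired libraries need not deviate together. With the replicate block in edgeR 14 members were higher and 6 lower, without the calls of Slc38a10 (edgeR adjusted p = 0.129) and Slc43a3 (edgeR adjusted p = 0.0662). On log2(FPKM + 1), limma gave Slc7a11 a change of 0.40, where the added 1 is larger than its mean of 0.331 FPKM in the PM2.5 group. The change was 2.00 on log2(FPKM + 0.1) and 5.46 in DESeq2. The calls of Slc7a7, Slc7a4, Slc43a1 and Slc1a3 rest on few counts, at most 93 over the 3 libraries of a group. Exon overlaps cannot be resolved without the strand setting.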
